A study of Arabidopsis thaliana with 12 samples.

Results

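The activating auxin response factors of Arabidopsis thaliana are the 5 genes ARF5, ARF6, ARF7, ARF8 and ARF19, taken by locus identifier from a table of 28642 genes. All 5 loci were in the table (AT1G19850, AT1G30330, AT5G20730, AT5G37020 and AT1G19220), and their names come from RefSeq, which lists ARF5 as MP and ARF7 as NPH4. RNA was sequenced from the first leaf pair of seedlings, harvested 10 days after stratification, at a stage the labels call proliferation. The seedlings grew on medium with 25 mM mannitol, with 0.1 µM NAA, with both compounds, or on control medium, with 3 biological replicates in each of the 4 groups. Mannitol is a sugar alcohol that imposes mild osmotic stress, NAA (1-naphthaleneacetic acid) is a synthetic auxin, and all groups shared the same basal half-strength Murashige and Skoog medium. The title sets the question as how auxin signalling and the osmotic stress response meet in leaf growth.

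The values below are p-values from the authors' deposited table, with 1 column each for mannitol, NAA and both compounds against control. They carry no size and no direction, so nothing here says whether a gene was higher or lower in treated leaves. The 24 library columns carry headings that match no sample label and were not used. Expression levels, replicate spread and depth were therefore not analysed here, and the leaf identity of the samples could not be set against marker levels. Below, genes called as passing are those whose p-value, adjusted by the Benjamini-Hochberg method over all genes of a comparison, was under 0.05. The percentile of a p-value runs from near 0 for the smallest to 100 for the largest of the 28642.

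Auxin response factors are transcription factors that bind auxin response elements in DNA. When auxin is low, Aux/IAA proteins bind them and recruit TOPLESS corepressors; auxin brings Aux/IAA proteins to the TIR1/AFB receptors, which leads to their degradation and frees the factors. The 5 genes here encode the members of the family whose glutamine-rich middle region activates transcription. ARF5, also called MONOPTEROS, acts in embryo patterning, vein formation and organ initiation. ARF6 and ARF8 act together in hypocotyl elongation and flower maturation, and both transcripts are cut under the guidance of the microRNA miR167. ARF7 and ARF19 act together in lateral root formation, phototropism and leaf cell expansion.

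The miR167 sequences are shown first because they set ARF6 and ARF8 apart from the other members by transcript sequence. Mature sequences are from the RefSeq annotation of TAIR10.1, written 5′ to 3′, with the seed (bases 2 to 8) in capitals. The product of MIR167A, at chr3:8108090-8108110 on the plus strand, is identical to that of MIR167B, and miR167d, at chr1:11137556-11137577 on the plus strand, shares its seed.
miR167a-5p: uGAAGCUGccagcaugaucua
miR167d: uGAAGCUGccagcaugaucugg
The window of each member's transcript closest to the reverse complement of miR167a-5p was then located. ARF8 has 3 mismatches, at chr5:14633841-14633861 on the plus strand, and ARF6 has 4, at chr1:10686478-10686498 on the minus strand. Capitals mark the bases that differ from the reverse complement.
ARF6 window: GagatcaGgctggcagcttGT
ARF8 window: tagatcaGgctggcagcttGT
Counted from the 5′ end of the window, both carry T8G, C20G and A21T, and ARF6 also carries T1G. Both windows lie wholly in coding sequence, in exon 13 of 14 of either gene. Of 31342 genes with an annotated mRNA, 7 have a window with at most 4 mismatches and ARF8 alone has one with at most 3. The best windows of ARF5, ARF7 and ARF19 have 8, 7 and 7 mismatches, and 4203 genes have a window with 7 or fewer.

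**Figure D1:**
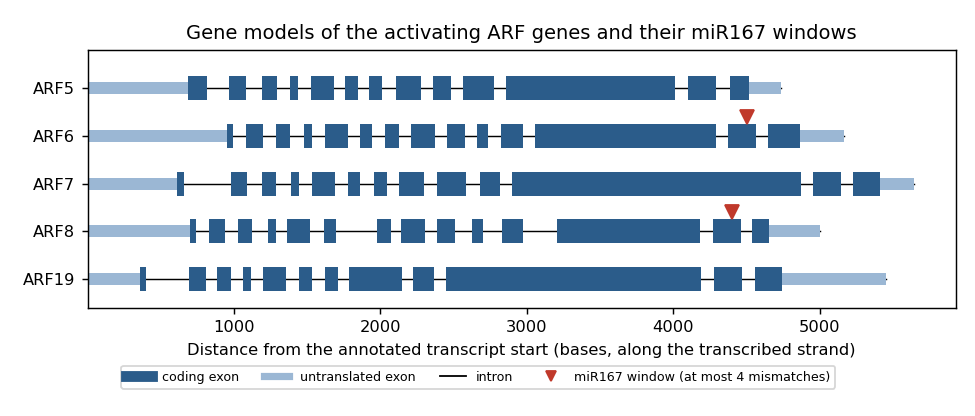
Gene models of the 5 members from RefSeq TAIR10.1, drawn from the annotated transcript start along the transcribed strand in bases, with the model of longest coding sequence for each gene. Red arrowheads mark the miR167 windows of ARF6 and ARF8, both in exon 13 of 14, and the other members have none with at most 4 mismatches.

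The members are long genes of 12 to 14 exons, with coding lengths from 2436 bases in ARF8 to 3498 bases in ARF7. ARF5 lies at chr1:6886669-6891404, ARF6 at chr1:10685822-10690988 and ARF19 at chr1:6627683-6633133. ARF7 lies at chr5:7016445-7022179 and ARF8 at chr5:14629453-14634454, all in TAIR10.1. The closest pair in coding sequence was ARF7 and ARF19, identical at 74.4% of aligned bases, and next ARF6 and ARF8 at 72.7%. The longest run of identical bases in any pair was 26. Of the 31-base stretches of the transcripts, none of those of ARF5, ARF6, ARF7 and ARF8 and 0.209% of those of ARF19 occur elsewhere in the nuclear genome.

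ARF6 was the member that passed in all 3 comparisons, a pattern that 855 genes share (2.99% of the table). Under mannitol its p-value in the authors' deposited table was 2.99e-08, under NAA 0.00249, and with both compounds it was listed at 0. Adjustment gave 2.08e-06 for mannitol, 0.0236 for NAA and 0 for both. ARF6 had the smallest p-value of the 23 auxin response factor genes under mannitol and with both compounds, and ranked 5 of 23 under NAA. Its percentile was 1.43 under mannitol, 10.6 under NAA and 0.74 in the combined treatment. The last is the value shared by all 423 genes listed at 0 with both compounds, among which the table gives no order.

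ARF8, the close relative of ARF6 that also has a miR167 window, passed in none of the comparisons, as did 67% of all genes. Its p-values in the authors' deposited table were 0.435 under mannitol, 0.135 under NAA and 0.971 in the combined treatment. The adjusted values were 0.89, 0.451 and 1 in that order, at percentiles of 48.9, 30 and 75.5. Under mannitol ARF8 thus stood close to the middle of the whole table, and with both compounds well past it. The table takes in genes whose p did not lie below 1 (7049 under mannitol and 6804 with both compounds). Whether ARF6 and ARF8 responded differently was not tested, since that needs the library values.

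The miR167 precursor transcripts and AGO1, which encodes the slicer that microRNAs guide, were listed beside this pair. MIR167A had p-values of 0.865, 0.169 and 0.0378 under mannitol, NAA and both compounds in the authors' deposited table, and MIR167D 0.421, 0.0218 and 0.744. Neither passed after adjustment in any comparison. MIR167B and MIR167C did not pass either. MIR167C had a p below 1 in no comparison, and MIR167B only with both compounds (0.317 in the authors' deposited table). A gene without a p below 1 could not pass there, so these results say little about either precursor. AGO1 passed in all 3 (adjusted p = 0.000484 under mannitol, 2.25e-10 under NAA and 0.00801 with both). The libraries were made from poly(A) RNA, so these values concern precursor transcripts and not the mature microRNA.

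ARF5 passed with both compounds only among the 3 comparisons, at a p-value of 1.22e-05 in the authors' deposited table (adjusted p = 0.000119, percentile 10.2). Under mannitol it lay just outside the threshold. Its p-value there was 0.0046 (adjusted p = 0.0506), where the largest p-value that passed was 0.00453; 2599 genes passed and 2603 had a p-value at or below that of ARF5. Under NAA the p-value of ARF5 was 0.0476 (adjusted p = 0.222, percentile 21.5). The unadjusted p-value was thus under 0.05 in all 3 comparisons for ARF5, as it was for ARF6 and for no other member.

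ARF7 passed in the combined treatment and under neither compound alone, a pattern of 4232 genes (14.8% of the table) that ARF5 shares. Its p-value with both compounds was 1.09e-06 in the authors' deposited table (adjusted p = 1.34e-05, percentile 8.16). Under mannitol its p-value was 0.888 and under NAA 0.542, at percentiles of 70.4 and 56.7. Among the members ARF7 therefore had the widest spread between comparisons, from rank 3 of the 23 auxin response factor genes with both compounds to rank 16 under mannitol. A difference between the combined and either single treatment was not tested.

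ARF7 overlaps CPN20 (AT5G20720), a chloroplast chaperonin gene on the opposite strand, by 254 bases. CPN20 also passed with both compounds (adjusted p = 0.0127) and not under mannitol or NAA (adjusted p = 1 in each). The kit kept strand information, but the strand setting of the counting is not given in the sources used here, and the part of CPN20 reads in the result for ARF7 was not tested. ARF5 overlaps AT1G19860 on the opposite strand by 23 bases, and that gene passed under NAA (adjusted p = 0.0378), where ARF5 did not, and not under mannitol (1) or with both compounds (0.7). ARF19 overlaps AT1G19210 by 6 bases, and that gene was listed at a p of 1 in each comparison.

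ARF19, the closest relative of ARF7, passed in none. Its p-values in the authors' deposited table were 0.227 under mannitol, 0.0382 under NAA and 0.704 in the combined treatment (adjusted p = 0.691, 0.19 and 1). NAA was the comparison in which ARF19 ranked highest, at percentile 20.1 and rank 6 of the 23 family members. With both compounds it stood at percentile 68.1.

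**Figure D2:**
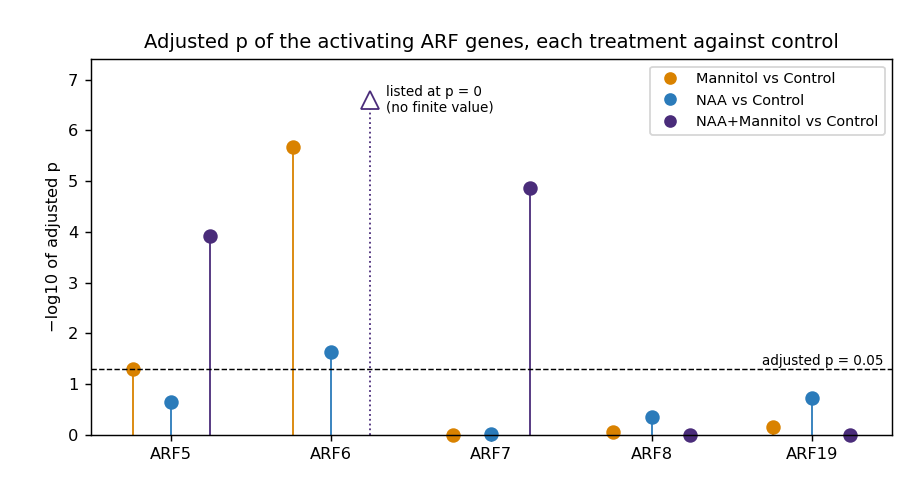
Adjusted p of the 5 members on a −log10 axis, 1 point for each of mannitol, NAA and both compounds against control; the dashed line is an adjusted p of 0.05 and the open triangle is ARF6, listed at a p of 0 with both compounds and thus without a finite height. ARF6 lies past the line in all 3 comparisons, ARF5 and ARF7 with both compounds, and ARF8 and ARF19 in none.

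Upstream sequence was compared for the ARF7 and ARF19 pair because only one of the pair passed. The 250 bases before each annotated start were searched on both strands for the auxin response elements TGTCTC and TGTCGG and for the G-box CACGTG, which do not overlap one another here. TGTCGG occurs in 4.16% of the 27443 protein-coding genes searched and, among members, once each in ARF7 and ARF19. TGTCTC, held by 10.9% of genes, and CACGTG, held by 6.49%, are in none of the 5 windows. The windows follow 5′ to 3′ in the direction of transcription, at chr5:7022180-7022429 and chr1:6633134-6633383 on the minus strand of TAIR10.1, with TGTCGG or its reverse complement in capitals.
ARF7 upstream: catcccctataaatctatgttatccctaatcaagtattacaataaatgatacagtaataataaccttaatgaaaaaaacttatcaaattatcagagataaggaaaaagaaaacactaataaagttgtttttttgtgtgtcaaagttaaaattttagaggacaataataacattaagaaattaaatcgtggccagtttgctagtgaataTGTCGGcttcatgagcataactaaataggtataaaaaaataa
ARF19 upstream: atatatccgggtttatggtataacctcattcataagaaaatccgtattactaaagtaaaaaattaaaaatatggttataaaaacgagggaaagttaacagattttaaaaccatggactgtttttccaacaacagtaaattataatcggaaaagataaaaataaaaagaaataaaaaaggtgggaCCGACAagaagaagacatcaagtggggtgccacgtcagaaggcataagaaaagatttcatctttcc
The element is present in the member that passed with both compounds and in the member that passed in none. Its part in either result was not tested, and neither was a difference between ARF7 and ARF19.

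Counted together, 1 of the 5 members passed under mannitol, where 9.07% of all genes did, 1 of 5 under NAA, where 12.8% did, and 3 of 5 with both compounds, where 26.3% did. For the 21121 genes whose p lay below 1 in every comparison, a group that holds all 5 members, the shares were 12.2%, 17.4% and 35.2%. The median percentile of the members was 32.9 for mannitol, 21.5 for NAA and 10.2 for both, against 50 for all genes in each. That 50 takes in genes whose p did not lie below 1 (7049 for mannitol, 7272 for NAA and 6804 for both). No member is among those genes, and the median percentile of the 21121 alone was not computed. At an unadjusted p under 0.05 the members numbered 2, 3 and 3 under mannitol, NAA and both compounds, where 17.9%, 21.8% and 33.9% of all genes lay. At an unadjusted p under 0.01 they numbered 2, 1 and 3 (10.8%, 14.3% and 25.1% of all genes), and after Bonferroni adjustment 1, 0 and 2 (2.44%, 3.31% and 8.46%). Bonferroni adjustment ended the call of ARF6 under NAA and that of ARF5 with both compounds. Every member's call except that of ARF6 with both compounds was lost when each p was read as a normal z and referred to Student's t with 4 degrees of freedom, and that one was kept only if its listed p of 0 was left at 0 (adjusted p = 0.0529 otherwise). With 5 genes, 1 call is 20% of the list, and the 3 comparisons share their control libraries, so the calls of a gene across comparisons are not independent.

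The other 18 auxin response factor genes, which mostly encode repressing factors, had 0, 4 and 2 members passing under mannitol, NAA and both compounds. These are shares of 0%, 22.2% and 11.1%, against 9.07%, 12.8% and 26.3% of all genes. Of the 18, 10 had a p below 1 in every comparison. Another 7 of the 18 were listed at a p of 1 in all 3 comparisons, namely ARF12 to ARF15, ARF20, ARF21 and ARF23. ARF18 (adjusted p = 8.49e-06), ARF1 (0.00883), ARF4 (0.011) and ARF2 (0.0111) passed under NAA, and ARF2 (adjusted p = 6.38e-08) and ARF1 (0.000983) with both compounds. None of these 18 passed under mannitol by the Benjamini-Hochberg adjustment, and 1 of them, ARF2, had an unadjusted p-value under 0.05 (0.0308 in the authors' deposited table).

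**Figure D3:**
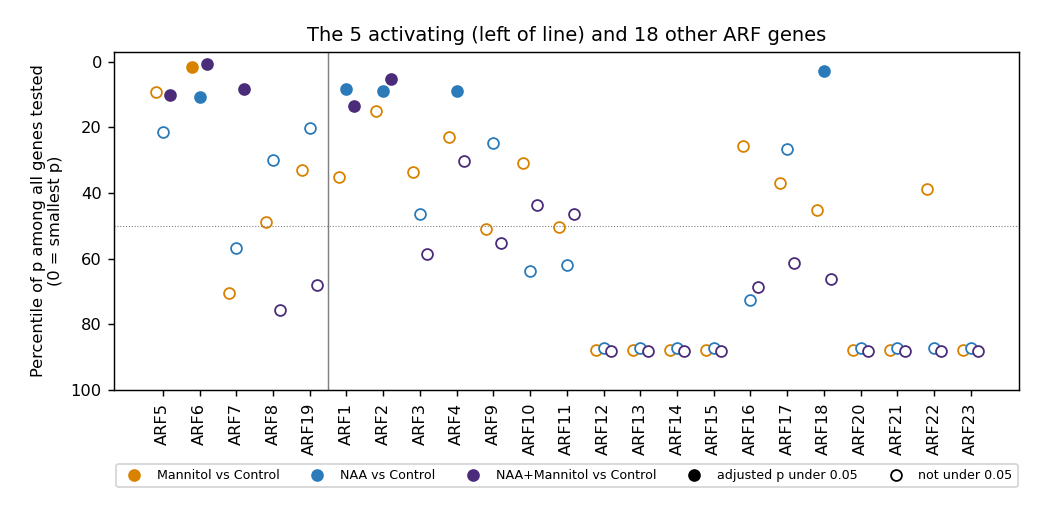
Percentile of p among 28642 genes (0 is the smallest p, at the top) for the 5 activating auxin response factors, left of the grey line, and the 18 others, in the 3 comparisons; filled points passed at an adjusted p under 0.05. ARF6 is filled in all 3 comparisons, and no other family member is.

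Among the genes that act on these factors, the TIR1/AFB receptor genes passed in shares of 50%, 50% and 66.7%, against 9.07%, 12.8% and 26.3% of all genes under mannitol, NAA and both compounds. Of the 6, 3 passed under mannitol, 3 under NAA and 4 in the combined treatment. TIR1 (adjusted p = 1.19e-05, 4.18e-10 and 5.81e-06 under mannitol, NAA and both) and AFB2 (6.56e-07, 9.29e-06 and 9.54e-08) passed in each, as ARF6 did. AFB5 passed under mannitol (adjusted p = 7.83e-07), AFB1 under NAA (4.35e-07), and AFB4 (7.61e-06) and AFB3 (0.0411) with both compounds.

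Of the 29 Aux/IAA repressor genes, whose proteins bind the activating factors, 4 passed under mannitol, 8 under NAA and 10 in the combined treatment. These are shares of 13.8%, 27.6% and 34.5%, against 9.07%, 12.8% and 26.3% of all genes. For the genes whose p lay below 1 in every comparison, which include 28 of the 29, the shares were 12.2%, 17.4% and 35.2%. With both compounds the smallest adjusted p-values were those of IAA8 (4.09e-23), IAA14 (2.91e-22), IAA18 (1.51e-16) and IAA4 (1.88e-11). IAA12 (BODENLOS), which partners ARF5 in the embryo, passed in no comparison (adjusted p = 1, 1 and 0.272 under mannitol, NAA and both compounds); it was chosen for that role and lies outside the rule for named genes. IAA14, which restrains ARF7 and ARF19 in lateral root formation, passed in each (adjusted p = 1.24e-08, 0.000818 and 2.91e-22). So did IAA26 (adjusted p = 1.6e-05, 0.00573 and 3.6e-05) and IAA29 (1.81e-05, 0.000815 and 0.0242).

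The TOPLESS corepressor genes passed in 1 of 5 cases under mannitol and in 3 of 5 both under NAA and in the combined treatment. As shares of the list that is 20%, 60% and 60%, against 9.07%, 12.8% and 26.3% of all genes. All 5 had a p below 1 in every comparison, and of all such genes 12.2%, 17.4% and 35.2% passed. TPR2 passed in each (adjusted p = 0.0417, 0.0142 and 2.85e-13 under mannitol, NAA and both), and TPL (0.00644 under NAA and 2.04e-05 with both) and TPR1 (0.0302 and 0.00013) in the comparisons that included NAA. Under mannitol the adjusted p was 0.216 for TPL and 0.273 for TPR1.

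Genes for proteins that work with the activating factors were a list of 6. Under mannitol 2 of them passed, under NAA 2 and with both compounds 4. That is 33.3%, 33.3% and 66.7% of the list, against 9.07%, 12.8% and 26.3% of all genes. All 6 had a p below 1 in every comparison, and of all such genes 12.2%, 17.4% and 35.2% passed. The chromatin remodelling ATPase genes BRM (adjusted p = 1.11e-10, 2.64e-05 and 0.000114 under mannitol, NAA and both) and SYD (0.00794, 0.00171 and 0.000108) passed in each comparison. Both ATPases are known to open chromatin at ARF5 targets in flowers. BIN2, a brassinosteroid-signalling kinase that phosphorylates ARF7 and ARF19, passed with both compounds (adjusted p = 0.000225), as did PIF4 (0.001), a bHLH factor that binds DNA with ARF6. BZR1 and MYB77 passed in none.

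Of 12 genes of the vascular and organ-initiation network in which ARF5 acts, 0 passed under mannitol, where 1 had an unadjusted p-value under 0.05, 1 under NAA and 3 with both compounds, and 10 had a p below 1 in every comparison. The 3 were TMO5 (adjusted p = 0.0305), HB-8 (0.0455) and DOF5.6 (0.0455), regulators of vascular development, and the gene under NAA was CRF2 (0.0464). As shares of the 12 genes, the passing counts were 0% for mannitol, 8.33% for NAA and 25% for the combined treatment. Each lay below the matching share of all genes (9.07%, 12.8% and 26.3%), and whether the list differed from all genes was not tested. Of 8 genes tied to ARF6 and ARF8, GH3.5 passed in each comparison (adjusted p = 0.0301, 0.0111 and 0.000569 under mannitol, NAA and both), and GH3.3 with both compounds (3.06e-09). Both encode enzymes that conjugate auxin to amino acids. The list had 12.5%, 12.5% and 25% of its genes passing under mannitol, NAA and both compounds, against 9.07%, 12.8% and 26.3% of all genes, and its MYB21 and MYB24 were listed at a p of 1 throughout. Of 5 genes tied to ARF7 and ARF19, 0 passed in any comparison after the Benjamini-Hochberg adjustment, and 0, 1 and 0 had an unadjusted p-value under 0.05; 2 of the 5 had a p below 1 in every comparison, and LBD16 and LBD33, of lateral root formation, were listed at 1 throughout.

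**Figure D4:**
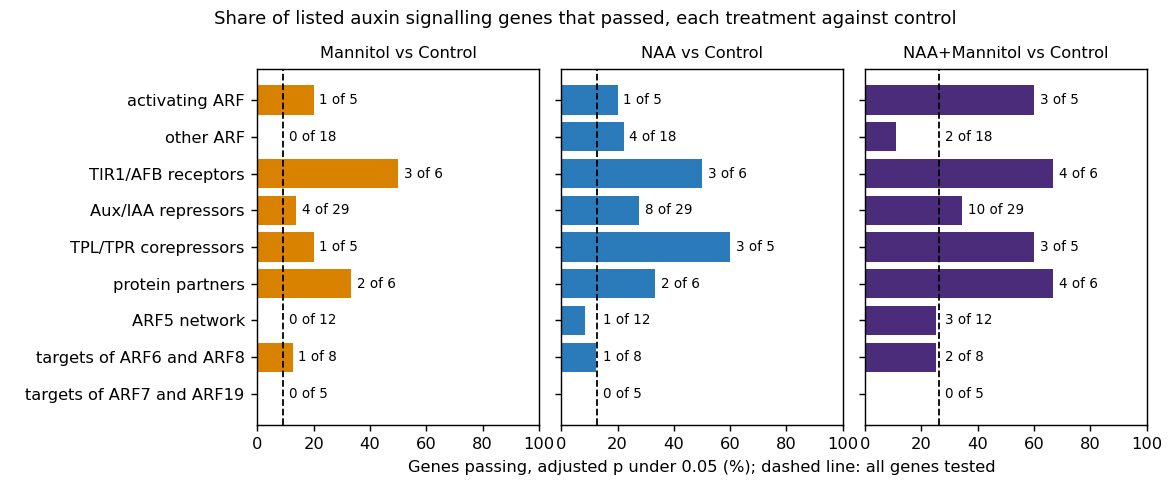
Percentage of each auxin signalling list that passed at an adjusted p under 0.05, in 1 panel for each comparison with control, with counts beside the bars; the dashed lines are the shares of all 28642 genes, 9.07%, 12.8% and 26.3%. The activating auxin response factors had 1, 1 and 3 of 5 genes passing, and the TIR1/AFB receptors 3, 3 and 4 of 6.

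For each member the 3 genes with the most similar percentiles over the 3 comparisons were listed, out of the 21121 whose p lay below 1 in every comparison. For ARF6 these were AT2G43210, ALDH2C4, an aldehyde dehydrogenase gene, and AT3G55710, at distances of 0.593, 0.748 and 0.921 percentile points. For ARF5 they were AT2G39000, AT5G39020 and PEX19-1, a peroxisome biogenesis gene, at 1.05 to 1.62 points. ARF7 had the most distant neighbours of the members, PGR7, Cpn60beta2 and AT3G07310, at 2.95 to 3.24 points. For ARF8 they were AT4G34140, the MADS-box gene AGL14 and AT3G17712, and for ARF19 La2, AT1G01810 and TAF5, at 1.3 to 2.3 points. This likeness rests on 3 values that carry no direction and share their controls.

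Markers of root, shoot meristem, vascular, leaf and dividing cells were listed beside the members. None of 5 root or 4 shoot meristem markers passed in any comparison after the Benjamini-Hochberg adjustment, where 9.07%, 12.8% and 26.3% of all genes did, and none had an unadjusted p-value under 0.05. Only 4 of the root and 1 of the shoot meristem markers, KNAT1, had a p below 1 in every comparison, and a marker listed at 1 could not pass there, so these counts say little about either cell type. Of 4 vascular markers, SUC2, IRX3 and APL passed in no comparison. XCP1, a xylem protease gene, passed with both compounds (adjusted p = 0.0186), where ARF5 also passed, and had an adjusted p of 0.0565 under mannitol. Of 5 markers of leaf and dividing cells, RBCS1A, KNOLLE and CDKB1;1 passed in no comparison. CYCB1;1 passed under mannitol (adjusted p = 0.00126) and with both compounds (0.0409), and LHCB1.3 with both compounds (0.0104). Their part in the results for the members was not tested. In leaf tissue as a whole, fewer cells of a type and less RNA per cell cannot be told apart.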

How the data were processed

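Stranded poly(A) mRNA libraries were made from 12 samples, 3 in each of 4 groups, per the labels' protocols. TAIR10 is the build that the submitters' processing notes name; for the aligner, the counting and the test, nothing is stated in the sources used. Of the deposited columns, 3 hold p-values of the authors for each treatment against control, called detection p-values per the file headers, which do not say whether they were adjusted. The 24 library columns were not used, because their headings match no label, so the planned edgeR test on counts was not run and the fallback fixed with it was used. Depth per sample was not analysed here.

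P-values were adjusted over 28642 genes by the Benjamini-Hochberg method in Python 3.11.15 (pandas 2.3.3, SciPy 1.17.1) and the step was tested on simulated data. Names came from RefSeq TAIR10.1, which matched 28009 identifiers; the deposited tables hold no coordinates, and all coordinates and sequences printed are those of TAIR10.1. Coding sequences were aligned with Biopython 1.88. All 117 entries of the gene lists matched their symbols. The members and lists were chosen with earlier results of these data known. Named genes were the 5 members, up to 4 genes of each list with the smallest p in a comparison, and 3 neighbours of each member.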

Additional observations from a re-analysis of the deposited data

How the results depend on the processing

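The calls of the members depended most on how the deposited p-values are read. Within 1e-06 of 0.317, the two-sided normal tail at a z of 1, lay 1235, 1290 and 1218 genes under mannitol, NAA and both compounds. In an alternative chosen after seeing the data, each p was read as a normal z and referred to Student's t with 4 degrees of freedom. With a p of 0 at its lowest z, the Benjamini-Hochberg step in Python left 0 genes under mannitol, NAA and both, against 2599, 3669 and 7535, and so 0 members. ARF6 then had adjusted p-values of 0.353, 0.369 and 0.0529, and its unadjusted t values were 0.00518, 0.039 and 0.00115. With a p of 0 kept at 0, 79, 83 and 610 genes passed, and 0, 0 and 1 of the members, the 1 being ARF6. Bonferroni adjustment left 698, 948 and 2423 genes, with ARF6 under mannitol, 0 members under NAA and ARF6 and ARF7 with both compounds; ARF5 did not pass there (0.348). At an unadjusted 0.05, 5129 and 6243 genes passed under mannitol and NAA, with 2 members under mannitol (ARF5 added) and 3 under NAA (ARF5 and ARF19 added). ARF5 under mannitol also passed at an unadjusted 0.01 and when adjusted over the genes whose p lay below 1 in every comparison, giving 2 members in each case. ARF8 passed in none of the 6 settings. DESeq2, other scalings and filters and leaving out each replicate need library values and were not run. No paired analysis was possible because p-values hold no replicates. What depth limits was not analysed here.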
